A study of Homo sapiens with 6 samples.

Results

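The complement genes described here are *C1QA*, *C1QB*, *C1QC*, *C3*, *C3AR1*, *C5AR1*, *CFD*, *CFP*, *CR1* and *CR2*. They were taken by symbol from a table of raw RNA-seq counts, which lists each of the 10 among its 30017 genes, by a rule on symbols that uses no measured value. Of the 10 genes, 8 passed the filter on low counts and were tested together with all other genes that passed it, 14758 in total. *C1QB* and *CR2* did not pass and are given by their counts.

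The study used BLaER1-CTCF-mAID cells, a subclone of a human B cell leukemia line that converts into induced macrophages (iMacs) when the transcription factor CEBPA is expressed in it. In every group the cells carried CTCF fused to an auxin-inducible degron, so that CTCF protein is lost when the auxin IAA (indole-3-acetic acid) is given. The 3 groups had 2 biological replicates each. Cells at 0 h were cultured without transdifferentiation factors. The 96 h control cells were collected 96 h after induction with 17β-estradiol, IL-3 and CSF-1. The 96 h CTCF-depleted cells, of the same time point, received IAA along with these factors. For the cells given IAA, the methods describe an exchange of medium for fresh factors and IAA. Whether the medium of the 96 h controls was exchanged is not stated there. The comparisons address how far conversion switches on complement genes and whether their levels at the end point differ without CTCF. The line is a single subclone, and degron-free cells given IAA were not analysed here, so that IAA itself and loss of CTCF cannot be told apart.

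Complement is a set of plasma and membrane proteins that tags microbes, immune complexes and dying cells for removal. C1q, built from A, B and C chains, starts the classical pathway when it binds antibody. The alternative pathway is driven by factor D (*CFD*), a serine protease, and is stabilized by properdin (*CFP*). All routes cleave C3, the central component, and its fragments act on the anaphylatoxin receptor C3AR1 or are bound by the receptors CR1 and CR2, whereas C5AR1 senses the C5a fragment. Most plasma complement is made in the liver, but macrophages are a main source of C1q, and monocytes and macrophages also make C3, factor D and properdin. CR2, also named CD21, is known from mature B cells and follicular dendritic cells.

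At 96 h after differentiation induction, the 8 tested genes had all risen from near 0. Upon CTCF depletion, *C3*, *CFD* and *CFP* rose further, to 1.69 to 1.93 times their control level. *C1QC* was called lower, a call that was lost in DESeq2 and when any of the 4 libraries at 96 h was left out. *C1QB*, which was not tested with the filter, had 15 counts in control and 1 upon depletion, and *C1QA*, *C3AR1*, *C5AR1* and *CR1* were not called.

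Libraries held 9273470 to 12718780 counts, and the correction of library sizes was small. Summed over the 10 genes, 13 and 14 counts were found at 0 h, 2800 and 2602 at 96 h in control and 4184 and 3678 upon depletion. Replicates of a group differed by more than sampling noise (chi-square per degree of freedom 1.71 to 2.69) and were used as separate samples. The targeted gene, *CTCF*, was counted 2048 and 1875 times in control and 2062 and 2051 times upon depletion, a log2 fold change of 0.10 that did not pass the test (adjusted p = 0.119). Its transcript does not measure loss of the protein, on which the degron acts. The labelled cell types matched their markers: 7 macrophage markers summed to 35.3 to 39 CPM at 0 h, 4980 to 5220 in control and 4830 to 4860 in CTCF-depleted libraries, and 6 B cell markers to 2150 to 2170, 386 to 391 and 339 to 355 CPM. CPM are counts scaled to library size, corrected by the TMM method. Summed granulocyte markers (4 genes) lay at 0 to 0.3 CPM at 0 h and at 22.6 to 25.4 CPM in both 96 h groups. All 4 were called higher in control than at 0 h. T cell markers (3 genes) lay at 0 to 0.0926 CPM and hepatocyte markers (3 genes) at 0.6 to 1.24 CPM in all libraries, with *TTR* at 0 throughout. Of the macrophage markers, *ITGAM* was called higher and *MRC1* lower upon CTCF depletion, and *VPREB1* among the B cell and *MPO* among the granulocyte markers were called lower. The part of these marker levels in the results below was not tested. In bulk RNA, fewer cells of a type and less RNA per cell cannot be told apart.

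*C1QA* (chr1:22635077-22639678), *C1QC* (chr1:22643014-22648110) and *C1QB* (chr1:22652762-22661637) lie side by side on the plus strand (hg38, GENCODE release 44). The stretches below precede RefSeq start sites of 6 members and are shown because these genes sit in one gene cluster (*C1QA*, *C1QB*), rose upon CTCF depletion (*CFD*, *CFP*) or encode the anaphylatoxin receptors (*C3AR1*, *C5AR1*). They are RefSeq sequences (GRCh38.p14), read 5′ to 3′ on the strand of the gene, with bases of annotated exons left out. RefSeq and GENCODE starts differ for some genes. The stretches of *C1QA*, *C1QB*, *CFD* and *C5AR1* lie inside the GENCODE spans of these genes, and those of *CFP* and *C3AR1* lie upstream of them. Capitals mark matches, on either strand, to letters of a C/EBP motif (TTGCNNAA), a PU.1 motif (GAGGAA), the core of the CTCF motif (AGGGGGC) or an AP-1 motif (TGANTCA). C/EBP factors and PU.1 are the myeloid regulators best known at such genes. These motifs do not overlap each other in the stretches shown.
C1QA, chr1:22636213-22636449, plus strand: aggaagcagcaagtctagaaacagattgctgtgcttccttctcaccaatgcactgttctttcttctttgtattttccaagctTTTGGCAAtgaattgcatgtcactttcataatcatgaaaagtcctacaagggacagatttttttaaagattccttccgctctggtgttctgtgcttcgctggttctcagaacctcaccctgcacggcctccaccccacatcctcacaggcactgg
C1QB, chr1:22652986-22653188, plus strand: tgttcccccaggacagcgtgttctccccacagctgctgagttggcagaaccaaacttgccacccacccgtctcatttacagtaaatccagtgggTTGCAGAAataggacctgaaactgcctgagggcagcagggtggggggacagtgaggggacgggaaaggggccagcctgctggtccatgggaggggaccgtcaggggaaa
CFD, chr19:859533-859663, plus strand: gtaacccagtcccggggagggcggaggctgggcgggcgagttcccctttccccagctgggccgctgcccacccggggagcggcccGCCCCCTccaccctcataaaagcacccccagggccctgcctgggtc
CFP, chrX:47630306-47630555, minus strand: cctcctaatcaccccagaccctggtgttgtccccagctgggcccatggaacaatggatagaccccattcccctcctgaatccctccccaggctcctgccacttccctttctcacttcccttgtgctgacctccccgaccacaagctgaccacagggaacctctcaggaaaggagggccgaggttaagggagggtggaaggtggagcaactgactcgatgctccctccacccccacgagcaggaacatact
C3AR1, chr12:8066360-8066609, minus strand: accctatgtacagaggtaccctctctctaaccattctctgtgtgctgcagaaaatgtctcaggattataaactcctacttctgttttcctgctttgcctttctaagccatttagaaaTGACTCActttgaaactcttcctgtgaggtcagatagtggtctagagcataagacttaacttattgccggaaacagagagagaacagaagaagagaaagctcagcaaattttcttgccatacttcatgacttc
C5AR1, chr19:47309611-47309860, plus strand: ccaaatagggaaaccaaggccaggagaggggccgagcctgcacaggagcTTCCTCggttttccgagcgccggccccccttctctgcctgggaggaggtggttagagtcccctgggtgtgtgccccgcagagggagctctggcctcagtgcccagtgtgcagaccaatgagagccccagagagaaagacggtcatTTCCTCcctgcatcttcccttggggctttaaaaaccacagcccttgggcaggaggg
*C1QA* and *C1QB* each had a C/EBP match, 168 to 161 and 156 to 149 bases before the start. *CFD* had a CTCF core match 46 to 40 bases before its start, *C3AR1* an AP-1 match 133 to 127 bases before and *C5AR1* PU.1 matches 201 to 196 and 56 to 51 bases before. The *CFP* stretch had no match. RefSeq windows of 250 bases were found for 8 of the 10 members, 10 windows in total, and none was found for *C1QC* and *C3*. A further *C1QA* start had a C/EBP match (118 to 111 bases before) and a CTCF core match (63 to 57 bases before), a further *CFP* start had PU.1 matches 207 to 202 and 20 to 15 bases before, and the windows of *CR1* and *CR2* had no match. Over 35116 such windows of all genes, 9.05% held the C/EBP letters, 23.6% PU.1, 13.3% the CTCF core and 6.57% AP-1, so that matches of this kind are common. A match describes letters only, and binding was not measured in these files.

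Conversion switched complement genes on from almost nothing. Comparing 96 h control with 0 h, 8 of the 8 tested members were called higher, where a call needed an adjusted p under 0.01 and a log2 fold change of more than 0.6 in either direction. Over all genes tested, 25.4% were called higher and 22.9% lower. No member had more than 7 counts in a 0 h library, so the 8 genes passed the filter through their 96 h counts. In both comparisons with 0 h, a call of higher was thereby nearly set in advance. The 8 of 8 therefore cannot be weighed against the shares over all genes. The adjusted p values of single members against 0 h, given below, carry the same limit and add no support. The median log2 fold change of the members was 8.90, beside 0.02 over all genes. It was 7.07 with the 2 genes without counts at 0 h set to their ratio against 3 counts over that group. With so few counts at 0 h, a fitted fold change depends on the prior count, and ratios with counting intervals are therefore given. The tested members were also higher in CTCF-depleted cells: 8 of 8 were called higher than at 0 h, where 27.2% of all genes were called higher and 25.2% lower, with a median of 8.91 (7.18 with the 2 genes so set) beside 0.02. The comparisons share the 0 h libraries, so the second is not independent of the first.

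Of the C1q chains, *C1QA* had 0 and 0 counts at 0 h, 72 and 67 in control and 113 and 70 in CTCF-depleted libraries. *C1QC* had 0 and 0, 91 and 89, and 59 and 50 counts. *C1QB* had 0 and 0, 8 and 7, and 1 and 0 counts. None of the chains was thus detected before conversion, and all were in control iMacs, *C1QB* far below the other chains. Against 3 counts over the group as the limit that 0 counts allow, *C1QA* was at least 48.2-fold, *C1QC* at least 62.4-fold and *C1QB* at least 5.2-fold higher in control than at 0 h (edgeR adjusted p = 2.59e-16 for *C1QA* and 5.94e-19 for *C1QC*).

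*C3* (chr19:6677704-6730562, minus strand) had 0 and 2 counts at 0 h and 954 and 957 in control, a ratio of 994 (95% interval 275 to 8220, counting error only). *CFD* (chr19:859453-867884, plus strand) had 1 and 0 counts and then 439 and 367, a ratio of 839 (150 to 33200). *CFP* (chrX:47623172-47630305, minus strand) had 7 and 7 counts at 0 h and 373 and 339 in control. Properdin was thus the member with the most counts in B cells, and its ratio was 52.9 (31.3 to 97.3). This counting interval lay below those of *C3* and *CFD*. Such intervals leave out the spread between replicates, and the difference between genes was not tested. Adjusted p values, under the limit of the filter given above, were 1.25e-39 for *C3*, 1.05e-35 for *CFD* and 1.16e-33 for *CFP*.

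Among the receptors, *C3AR1* (chr12:8056844-8066359, minus strand) had 1 and 1 counts at 0 h and 471 and 416 in control, a ratio of 462 (127 to 3820; adjusted p = 7.85e-37). *C5AR1* (chr19:47290023-47322066, plus strand) had 0 and 2 counts and then 312 and 312, a ratio of 325 (89.5 to 2690; adjusted p = 2.87e-30). *CR1* (chr1:207496147-207641765, plus strand), which binds C3b and C4b, had 4 and 2 counts and then 80 and 47, a ratio of 22 (9.84 to 61.1; adjusted p = 4.01e-13). These adjusted p values carry the limit of the filter given above. *CR2* (chr1:207453024-207489895, plus strand), next to *CR1* and known from B cells, had 0 and 0 counts at 0 h, 0 and 1 in control and 0 and 0 in CTCF-depleted libraries. A count of 0 allows up to 0.309 and 0.225 CPM in the 0 h libraries, so *CR2* was not detectable in the B cell state at this depth.

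**Figure D1:**
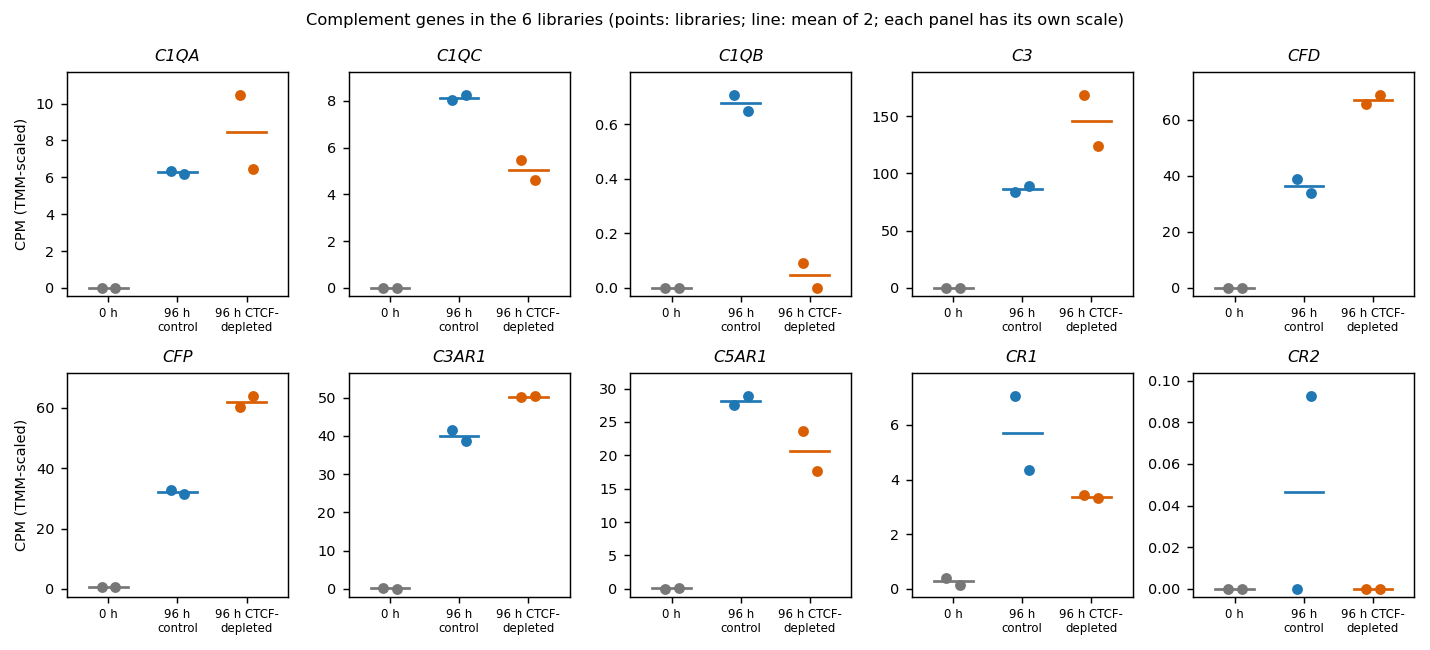
Normalised read counts (CPM, scaled to library size; vertical axes, each with its own scale) of the 10 complement genes in the 6 libraries, as points, by group on the horizontal axis, with a line at the mean of 2 libraries. All genes but *CR2* sit near 0 at 0 h and higher in control, and *CFD*, *CFP* and *C3* are higher and *C1QC* and *C1QB* lower in the CTCF-depleted libraries.

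The plot of CPM by library shows the shape that most members share, a level near 0 at 0 h and a spread between the 96 h groups that differs from gene to gene. Levels of different genes were compared per kilobase of merged annotated exons. In control iMacs *CFD* stood highest at 20 ± 1.85 CPM per kb (SD, n = 2 throughout), followed by *C3AR1* (11.5 ± 0.617), *C5AR1* (9.52 ± 0.324), *C3* (7.46 ± 0.27), *CFP* (5.72 ± 0.192), *C1QC* (4.69 ± 0.0858) and *C1QA* (2.38 ± 0.0401). *CR1* (0.454 ± 0.152), *C1QB* (0.291 ± 0.0176) and *CR2* (0.00921 ± 0.013) lay below. No neighbours in this order overlapped in control. In CTCF-depleted cells *CFD* was again highest (36.9 ± 1.23), and *C3AR1* (14.4 ± 0.0602), *C3* (12.6 ± 2.74) and *CFP* (11 ± 0.472) followed, with overlap of *C3AR1* with *C3* and of *C3* with *CFP*. *C5AR1* (6.97 ± 1.41) came next, ahead of *C1QA* (3.2 ± 1.08) and *C1QC* (2.9 ± 0.349), which overlapped. At 0 h *CFP* alone stood apart from its neighbour, at 0.111 ± 0.0248 CPM per kb.

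Comparing 96 h CTCF-depleted with 96 h control libraries, *C3*, *CFD* and *CFP* were called higher, *C1QC* was called lower and 4 of the 8 tested members were not called. Over all genes tested, 5.41% were called higher and 7.03% lower. The adjusted p was below 0.01 for 6 of the 8 members, of which *C3AR1* and *C5AR1* did not reach the fold change threshold. The median log2 fold change of the members was 0.38, beside -0.03 over all genes, and ranged from -0.76 to 0.95. Both CTCF-depleted libraries lay above both control libraries for 5 members (*C1QA*, *C3*, *C3AR1*, *CFD* and *CFP*) and below them for 3 (*C1QC*, *C5AR1* and *CR1*). Such separation is common here, since it was seen for 30.1% (higher) and 37.8% (lower) of all genes tested. Permuting 2 libraries against 2 gives a two-sided p of 0.333 at the lowest, and the p values for each gene therefore depend on edgeR's estimate of spread over many genes.

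The alternative pathway genes gave the clearest increases. *CFP* had 32.9 and 31.4 CPM in control and 60.2 and 63.9 CPM in CTCF-depleted libraries, from 373 and 339 against 650 and 694 counts. Its groups did not overlap, and the log2 fold change was 0.95 (standard error 0.08, adjusted p = 2.13e-14). *CFD* had 38.7 and 34.0 CPM in control and 65.6 and 68.7 CPM in CTCF-depleted libraries, from 439 and 367 against 708 and 746 counts; the increase on the log2 scale was 0.88 (standard error 0.08, adjusted p = 1.45e-13). Both genes kept their call under each alternative that left the thresholds as they were and let them be tested, with log2 fold changes of 0.93 to 1.03 for *CFP* and 0.82 to 1.01 for *CFD*. *CFD* overlaps *MED16* on the other strand, and without the strand setting of the counting, reads of the overlap cannot be assigned with certainty. *MED16*, a Mediator subunit, had 507 and 515 counts in control and 434 and 428 upon depletion (log2 fold change -0.21, adjusted p = 0.0379, not called). The part of overlapping reads in the *CFD* counts was not tested.

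*C3* had 84.2 and 88.6 CPM in control and 168.5 and 124 CPM in CTCF-depleted libraries, from 954 and 957 against 1820 and 1343 counts. The increase was present in both CTCF-depleted libraries, which differed from each other more than the controls did. The log2 fold change was 0.76 (standard error 0.08, adjusted p = 2.05e-11). Without CTCF-depleted replicate 1 it was 0.56, below the fold change threshold, with an adjusted p of 3.42e-09. *C3* overlaps *GPR108*, a gene on the same strand, which had a log2 fold change of 0.20 (adjusted p = 0.0491). *CFP* likewise overlaps an unnamed gene model on its own strand.

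Of the C1q chains, *C1QC* was called lower, *C1QA* was not called, and a difference between chains was not tested. *C1QC* had 8.03 and 8.24 CPM in control and 5.46 and 4.61 CPM in CTCF-depleted libraries, and differed by -0.69 on the log2 scale (standard error 0.21, adjusted p = 0.00771). This call was close to the threshold: it was lost in DESeq2 (adjusted p = 0.125) and when any of the 4 libraries at 96 h was left out, where adjusted p ranged from 0.0253 to 0.128 and the log2 fold change from -0.78 to -0.54. *C1QA* had 6.35 and 6.21 CPM in control and 10.5 and 6.45 CPM in CTCF-depleted libraries. Its depleted libraries spanned far more than its controls, and the log2 fold change of 0.43 (95% interval 0.0029 to 0.85, adjusted p = 0.107) was not called. Without CTCF-depleted replicate 2 it was 0.77 (adjusted p = 0.00964, called higher), and without replicate 1 it was 0.08 (adjusted p = 0.882). *C1QB* had 15 counts over both control libraries and 1 over both CTCF-depleted libraries, a ratio of 0.0681 (95% counting interval 0.00162 to 0.443). In a fit without the filter, over 21566 genes, *C1QB* had an adjusted p of 0.0368 and was not called.

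Within each library, the C1q counts divided differently between the chains in the 96 h groups. *C1QA* made up 42.1% (Wilson 95% interval 35 to 49.6%) and 41.1% (33.8 to 48.8%) of the 171 and 163 C1q counts in control. In CTCF-depleted libraries it made up 65.3% (58 to 72%) and 58.3% (49.4 to 66.8%) of 173 and 120. *C1QC* went the other way, from 53.2% (45.7 to 60.5%) and 54.6% (46.9 to 62.1%) to 34.1% (27.5 to 41.4%) and 41.7% (33.2 to 50.6%). The total of C1q counts was of similar size in 3 of these libraries while its makeup differed, and *C1QC* held the larger share in control and *C1QA* in CTCF-depleted libraries. *C1QB* made up 4.68% and 4.29% in control and 0.578% and 0% in CTCF-depleted libraries. The shares depend on transcript length, and they are a description without a test. *C1QA* and *C1QC* also overlap a read-through gene model on the same strand, so that the assignment of reads between them is uncertain.

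**Figure D2:**
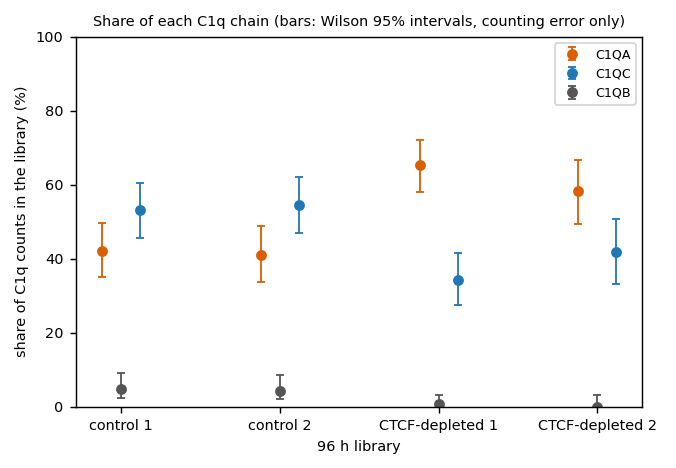
Share (%, vertical axis) of *C1QA*, *C1QC* and *C1QB* in the C1q counts of each 96 h library (horizontal axis), with Wilson 95% intervals that cover counting error only. *C1QC* holds the largest share in the 2 control libraries (53.2 and 54.6%) and *C1QA* in the 2 CTCF-depleted libraries (65.3 and 58.3%).

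The plot of C1q shares makes the exchange of order between *C1QA* and *C1QC* visible. Their intervals overlap in both control libraries and in CTCF-depleted replicate 2, and are separate in CTCF-depleted replicate 1.

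None of the 3 tested receptors for complement fragments was called upon depletion. *C3AR1* had 41.6 and 38.5 CPM in control and 50.1 and 50.4 CPM in CTCF-depleted libraries, a log2 fold change of 0.33 (95% interval 0.16 to 0.49, adjusted p = 0.00116). *C5AR1* had 27.5 and 28.9 CPM in control and 23.6 and 17.7 CPM in CTCF-depleted libraries, a log2 fold change of -0.45 (95% interval -0.70 to -0.20, adjusted p = 0.00252). Both differences passed the p threshold but not the fold change threshold of 0.6. In DESeq2 neither passed the p threshold (adjusted p = 0.0388 for *C3AR1* and 0.0709 for *C5AR1*). The p threshold was also missed by *C5AR1* without control replicate 1 (adjusted p = 0.028) or 2 (0.0689), and by *C3AR1* without control replicate 2 (0.0247) or CTCF-depleted replicate 2 (0.0114). Without CTCF-depleted replicate 1, *C5AR1* reached -0.63 (adjusted p = 0.000469) and was called lower, and without replicate 2 it was -0.23 (adjusted p = 0.27). *CR1* had 7.06 and 4.35 CPM in control and 3.43 and 3.32 CPM in CTCF-depleted libraries, a log2 fold change of -0.76 (95% interval -1.30 to -0.23, adjusted p = 0.0191). It was not called, and its control libraries differed from each other more than its depleted libraries did. *CR1* has a related neighbour, *CR1L*, which had 0 counts in control and 2 and 2 in CTCF-depleted libraries, so that a few reads may be divided between them.

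**Figure D3:**
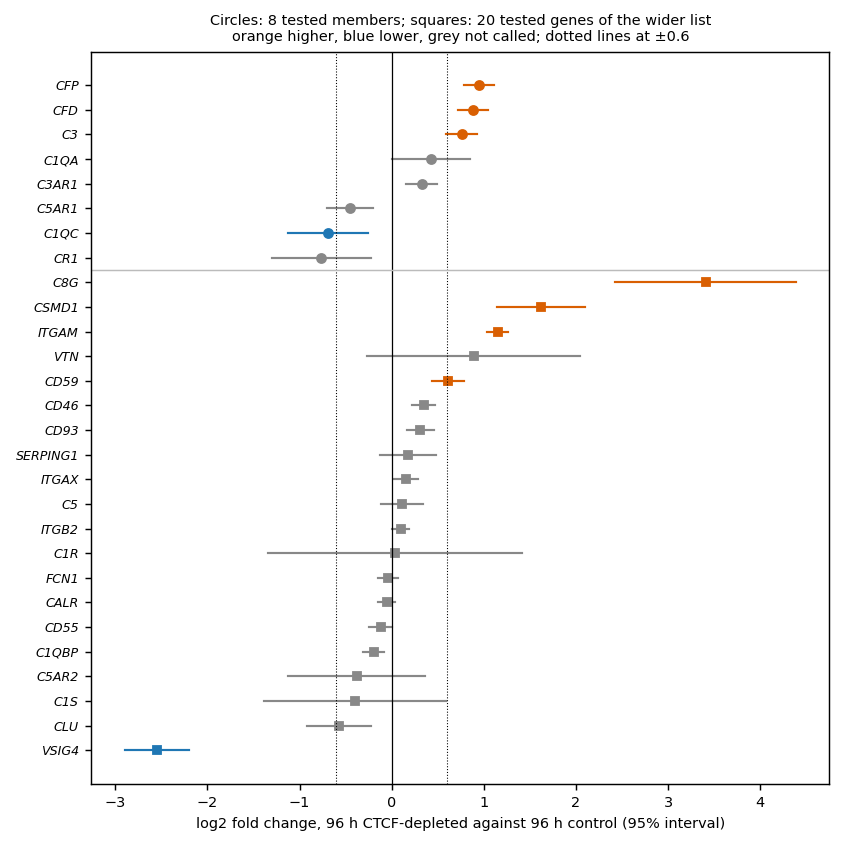
Log2 fold change between 96 h CTCF-depleted and 96 h control (horizontal axis; bars are 95% intervals) of the 8 tested members (circles, top) and the 20 tested genes of a wider complement list (squares). Orange marks genes called higher, blue genes called lower and grey genes not called. *CFP*, *CFD* and *C3* lead the members at 0.95, 0.88 and 0.76, and *C8G* (3.41) and *VSIG4* (-2.55) are the extremes of the wider list. *C8G* passed the filter on low counts through its CTCF-depleted libraries.

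The plot of fold changes sets the members beside 46 further complement genes of known role, all of which the table lists and of which 20 passed the filter. Upon CTCF depletion, 4 of these 20 were called higher and 1 lower, with a median log2 fold change of 0.11, beside 5.41% and 7.03% of all genes tested and their median of -0.03. From 0 h to 96 h control, 12 were called higher and 3 lower (median 1.38), beside 25.4% and 22.9% of all genes. From 0 h to CTCF-depleted, 13 were higher and 3 lower (median 2.21), beside 27.2% and 25.2%. Genes such as *FCN1*, *ITGAX*, *VSIG4*, *C5AR2* and *VTN* had no counts at 0 h and passed the filter through their 96 h counts. *C8G* passed it through its CTCF-depleted counts. Calls of higher were nearly set in advance for such genes, so the numbers called higher cannot be weighed against the shares over all genes. The list was drawn up with earlier results of these data known, and is not independent evidence.

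Of the wider list, most further genes that begin or amplify the cascade did not pass the filter on low counts. Of 10 genes of recognition molecules and their proteases, 3 were tested. *FCN1*, the ficolin of monocytes, went from 0 and 0 counts to 2424 and 2166 in control, a ratio with a lower 95% counting limit of 1290. It had 2218 and 2153 counts in CTCF-depleted libraries (log2 fold change against control -0.04, 95% interval -0.15 to 0.07, adjusted p = 0.62). *C1R* and *C1S*, the proteases that act with C1q, had 3 to 17 counts in every library and were not called. *C1R* had 16 and 15 counts at 0 h, 8 and 3 in control and 7 and 4 upon depletion. From 0 h to control its log2 fold change was -1.43 (adjusted p = 0.0177), and that of *C1S* was 0.23 (adjusted p = 0.662). The 4 genes of the C3 convertases (*C2*, *C4A*, *C4B*, *CFB*) did not pass the filter, with 0 to 12 counts in any library. Factor D and properdin rose in cells in which factor B (*CFB*), the substrate of factor D, had 0 to 2 counts. *C4A* and *C4B* are near-identical copies whose reads cannot be divided with certainty.

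Of the 7 terminal pathway genes, *C5* and *C8G* were tested. *C5* had 78 and 92 counts at 0 h, 278 and 239 in control and 261 and 287 in CTCF-depleted libraries, a rise upon conversion (log2 fold change 1.66, adjusted p = 3.03e-16) and no call upon depletion (0.12, adjusted p = 0.453). *C8G*, which encodes the gamma chain of C8, rose from 4 and 3 counts in control to 36 and 39 in CTCF-depleted libraries (log2 fold change 3.41, standard error 0.49, adjusted p = 5.65e-08). It was as low at 0 h, with 2 and 2 counts, and the other C8 chains, *C8A* and *C8B*, had at most 1 count in any library. *C8G* thus passed the filter through its CTCF-depleted counts, and a call of higher upon depletion was nearly set in advance.

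Regulators that protect the cell from complement changed in different ways. *CD59*, which blocks the membrane attack complex, had 499 and 689 counts at 0 h, 287 and 256 in control and 408 and 403 in CTCF-depleted libraries. It was lower in control than at 0 h (log2 fold change -1.07, adjusted p = 2.93e-17) and higher upon depletion (0.61, standard error 0.09, adjusted p = 7.62e-08), just past the threshold. *CD55*, which speeds the decay of convertases, rose upon conversion (2.77, adjusted p = 3.05e-38), as did *CD46*, a cofactor for cleavage of C3b (0.77, adjusted p = 1.1e-15). Neither was called upon depletion, at -0.12 for *CD55* and 0.35 for *CD46*. *CSMD1*, which can inhibit complement, had 1224 and 1706 counts at 0 h, 20 and 20 in control and 46 and 75 in CTCF-depleted libraries. It fell upon conversion (-6.13, adjusted p = 1.73e-43) and stood higher in CTCF-depleted than in control cells (1.62, adjusted p = 1.07e-07).

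Among 12 soluble regulators, 3 were tested. *SERPING1*, the C1 inhibitor, rose upon conversion (1.11, adjusted p = 1.36e-07), as did *VTN* (vitronectin), from 0 counts to 7 and 5. Upon depletion *SERPING1* (0.18, adjusted p = 0.381) and *VTN* (0.89, adjusted p = 0.231) were not called. *CLU* (clusterin), which binds terminal complexes, had 143 and 214 counts at 0 h, 103 and 131 in control and 74 and 80 upon depletion. It was called lower in CTCF-depleted cells than at 0 h (-1.12, adjusted p = 1.84e-08), whereas its differences upon conversion (-0.55, adjusted p = 0.00118) and upon depletion (-0.57, adjusted p = 0.00674) did not reach the fold change threshold.

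Among receptors and binding partners, 8 of 9 were tested. *ITGAM*, the alpha chain of complement receptor CR3, had 6 and 6 counts at 0 h, 1362 and 1468 in control and 3125 and 3039 in CTCF-depleted libraries. The depleted libraries were both above both controls, at 284.7 ± 6.65 against 128 ± 11.1 CPM (log2 fold change 1.15, standard error 0.06, adjusted p = 1.43e-24). *ITGAX*, the alpha chain of CR4, had 0 counts at 0 h, 1405 and 1256 in control and 1494 and 1403 in CTCF-depleted libraries (0.15, 95% interval 0.02 to 0.29, adjusted p = 0.0552). *ITGB2*, the beta chain common to both receptors, had 5148 and 4856 against 5310 and 5157 counts (0.10, adjusted p = 0.0947). The alpha chain of CR3 was thus called higher, whereas that of CR4 and the common beta chain were not. *VSIG4*, the receptor CRIg of tissue macrophages that takes up C3b-coated particles, had 0 counts at 0 h, 299 and 246 in control and 51 and 40 in CTCF-depleted libraries. It was lower by a ratio of 0.171 (95% counting interval 0.135 to 0.213; log2 fold change -2.55, standard error 0.17, adjusted p = 2.16e-18). *MRC1*, another receptor of tissue macrophages and a marker gene here, was also called lower, from 402 and 376 to 151 and 152 counts (log2 fold change -1.33, adjusted p = 3.95e-14). The other macrophage markers did not share this call. *ITGAM* was called higher, *CD14* (0.46), *CD163* (0.28) and *CD68* (0.28) lay above 0 without a call, and *CSF1R* (-0.30) and *LYZ* (-0.12) lay below 0 without a call.

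*C5AR2*, the second receptor for C5a and the gene next to *C5AR1*, had 0 counts at 0 h, 26 and 26 in control and 18 and 21 in CTCF-depleted libraries (-0.38, 95% interval -1.12 to 0.36, adjusted p = 0.447). *CD93*, once described as a C1q receptor, rose upon conversion (log2 fold change 3.88, adjusted p = 1.47e-36) and *C1QBP*, which binds the globular heads of C1q, fell (-1.03, adjusted p = 5.08e-25). Neither was called upon depletion, at 0.31 for *CD93* and -0.19 for *C1QBP*.

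**Figure D4:**
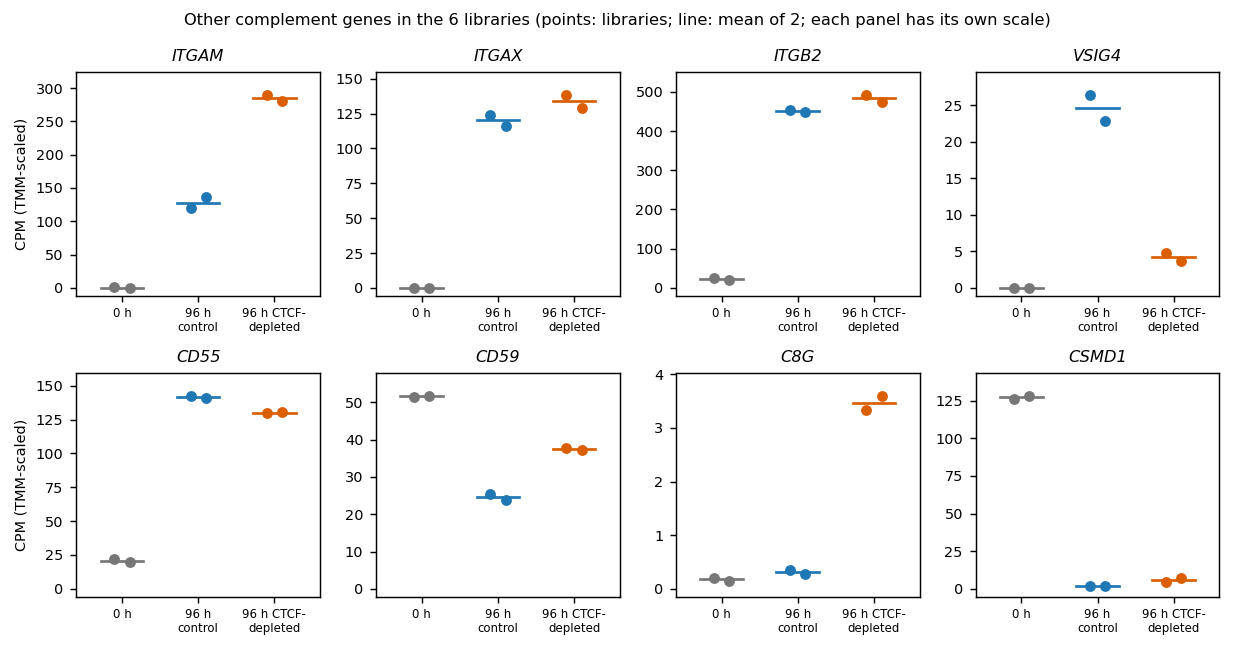
Normalised read counts (CPM, scaled to library size; vertical axes, each with its own scale) of 8 further complement genes in the 6 libraries, as points, by group on the horizontal axis, with a line at the mean of 2 libraries. *ITGAM*, *CD59*, *C8G* and *CSMD1* are higher and *VSIG4* is lower in the CTCF-depleted than in the control libraries, and *ITGAX*, *ITGB2* and *CD55* were not called.

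The plot of these genes shows *CSMD1* and *CD59* with their highest level at 0 h, unlike the members, and *C8G* near 0 in all but the CTCF-depleted libraries. For the members that were tested, the gene with the most similar pattern was sought by the smallest root mean square difference of centred log2 CPM over the 6 libraries. These were *LRG1* for *C1QA* (0.134), *SLC11A1* for *C1QC* (0.099), *GPR84* for *C3* (0.294), *PLAC8* for *C3AR1* (0.065), *LILRB3* for *C5AR1* (0.152), *LILRA5* for *CFD* (0.22), *SYT15* for *CFP* (0.135) and *CCDC151* for *CR1* (0.208). *C3AR1* had the closest match, with *PLAC8* at 0.0891, 43.6 and 55 CPM in the order of the groups, and *C3* the most distant.

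The table lists 49 genes other than the members within 100 kb of a member, and 33 of them were tested. From 0 h to control, 18 were called higher and 2 lower, beside 25.4% and 22.9% of all genes tested. Neighbours such as *C5AR2*, *MEIS3*, *LPPR3*, *AZU1*, *PRTN3* and *ELANE* had at most 1 count in a 0 h library and passed the filter through their 96 h counts. Their calls of higher were nearly set in advance, so the 18 cannot be weighed against these shares. Upon CTCF depletion 4 were called higher and 1 lower, beside 5.41% and 7.03%. Near the C1q genes, *EPHB2*, an ephrin receptor 49202 bases from *C1QB*, went from 142 and 153 counts in control to 281 and 281 upon depletion (log2 fold change 0.96, adjusted p = 2.12e-08). Near *C3AR1*, *CLEC4A*, a C-type lectin receptor of myeloid cells, had 20 and 14 against 55 and 73 counts (1.94, adjusted p = 9.25e-07). Both had larger log2 fold changes than *C1QA* and *C3AR1* beside them, a difference that was not itself tested. Near *C5AR1*, the homeobox gene *MEIS3* had 21 and 27 against 75 and 67 counts (1.59, adjusted p = 4.48e-06) and *PRR24* 55 and 46 against 78 and 82 counts (0.69, adjusted p = 0.0075), whereas *BBC3*, a mediator of apoptosis, had 349 and 289 against 186 and 217 counts (-0.63, adjusted p = 1.36e-05). Genes around *C5AR1* were therefore called in both directions.

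The surroundings of *CFD* hold the granule protease genes *AZU1*, *PRTN3* and *ELANE*, of which *ELANE* ends 3206 bases before *CFD* begins. They rose upon conversion, *AZU1* from 0 and 1 to 154 and 118 counts and *ELANE* from 0 and 0 to 29 and 28 counts. In CTCF-depleted libraries *AZU1* had 148 and 148 counts (log2 fold change 0.15, adjusted p = 0.472) and *ELANE* 37 and 39 counts (0.44, adjusted p = 0.271). Of the 8 tested neighbours of *CFD*, 6 were called higher upon conversion, among them *AZU1*, *PRTN3*, *ELANE* and *LPPR3*, which passed the filter through their 96 h counts. Upon depletion these 8 stayed within the fold change threshold, from -0.57 for *ARID3A* (adjusted p = 6.51e-09) to 0.53 for *LPPR3* (adjusted p = 0.301). The 5 tested neighbours of *C3* and the 5 of *CFP* also stayed within it, with the highest values for *TRIP10* (0.52, adjusted p = 0.000133) and *ELK1* (0.45, adjusted p = 8.15e-06). The difference in call between *CFD*, *C3* or *CFP* and their neighbours was not itself tested.

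**Figure D5:**
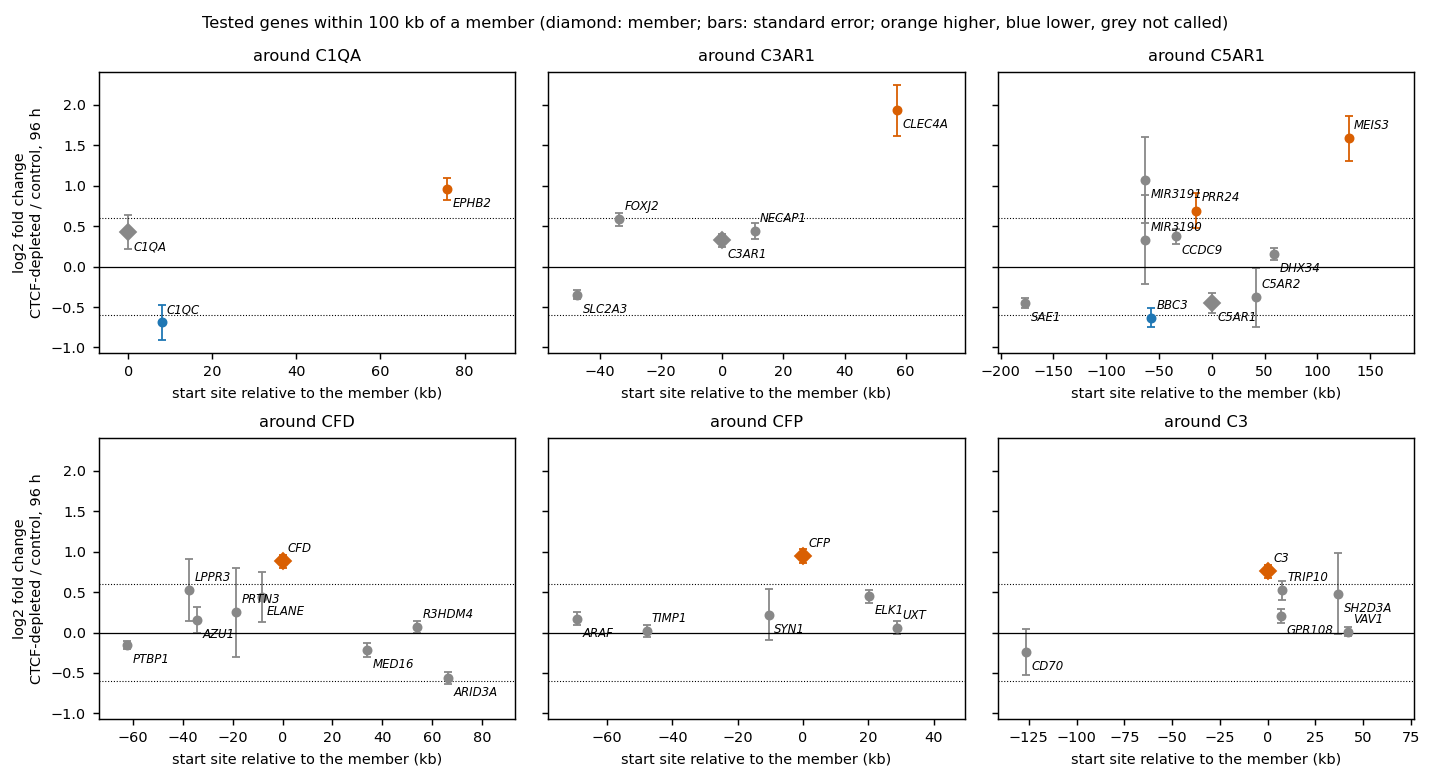
Log2 fold change between 96 h CTCF-depleted and 96 h control (vertical axes; bars are standard errors) of tested genes within 100 kb of 6 members, by the distance between start sites in kb (horizontal axes). Diamonds mark the member, orange genes called higher, blue genes called lower and grey genes not called. Around *CFD*, *CFP* and *C3* the member is the gene called, whereas around *C5AR1* genes were called in both directions.

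The plot of neighbours shows *CFD*, *CFP* and *C3* above the other genes of their regions, and *CLEC4A* and *MEIS3* as the highest values, at 1.94 and 1.59.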

How the data were processed

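RNA-seq was measured in 6 libraries of total RNA depleted of ribosomal RNA. The authors deposited raw counts per gene symbol, which were not normalized. According to the submitters' processing notes, reads were aligned with STAR 2.6.1d to hg38 and counted with featureCounts 2.0.6, and the methods name protein-coding exons as the counted features. The annotation release and the strand setting are not given in the sources used here, and alignment and counting were not repeated. Per-sample columns without a sample numbered 0.

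Differential expression was tested with edgeR 4.0.16 (R 4.3.3). After filterByExpr and TMM scaling, a quasi-likelihood model with group as its term was fitted to the 6 libraries at once (prior degrees of freedom 51.7, common biological coefficient of variation 3.96%). P values in the text are from this test, adjusted with the Benjamini-Hochberg method over all 14758 genes tested, unless DESeq2 1.42.0 is named. The thresholds (adjusted p below 0.01, absolute log2 fold change above 0.6) are those of the study. Ratios are of summed counts scaled to library size, with exact 95% intervals, and shares have Wilson intervals. Both cover counting error only, since amplified reads carry no molecular identifiers. Against a group without counts, 3 counts over the group served as the floor. Total counts of 9273470 to 12718780 set the depth.

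GENCODE release 44, searched by name or RefSeq synonym, placed 23695 of 30017 symbols and 13544 of 14758 tested genes. Promoter windows came from RefSeq (GRCh38.p14). Positions and plots used Python 3.11.15 (matplotlib 3.10.9, numpy 2.4.6, pandas 2.3.3).

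Samples were grouped by their titles. Replicate numbers were not treated as pairs, since no label ties equal numbers to a shared batch and the differences between replicates 1 and 2 correlated across genes at -0.0294 to 0.0109 between groups. Whether the replicates came from separate cultures is not stated beyond the word biological, so the p values measure the spread between these samples. The members and lists were chosen with earlier results of these data known. Genes named are the members, genes of the wider list called at 96 h upon depletion or upon conversion, called neighbours within 100 kb, the gene with the most similar pattern for each tested member, *CTCF* and cell type markers; other genes were named after their values were seen. A gene of the wider list is not reported here and was left out of its counts. Alternatives were DESeq2, RLE scaling, other filters and thresholds, fits of 4 libraries, the replicate block and leaving out each library.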

Additional observations from a re-analysis of the deposited data

How the results depend on the processing

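No fold change of the 8 tested members reversed direction under any alternative run; *C1QB* and *CR2* were not included. DESeq2 called 0 members lower upon CTCF depletion in place of 1, and leaving out a library gave 0 to 1 (and 2 to 4 higher in place of 3), *C5AR1* in place of *C1QC* without CTCF-depleted replicate 1. With an adjusted p below 0.05 and no fold threshold, 3 members were lower. An absolute log2 fold change above 1 left 0 members higher and 0 lower. In the wider list, at 0.05 without a fold threshold, 3 genes were lower upon depletion in place of 1, 5 were lower in control than at 0 h in place of 3, and 5 were lower in CTCF-depleted cells than at 0 h in place of 3. Leaving out a library gave 1 to 2 genes lower upon depletion, the higher number without control replicate 1. With at least 10 counts in every library, 11 genes of the wider list and 0 members could be tested, since genes with fewer counts at 0 h drop out, and 6 were higher in control than at 0 h, 2 higher and 0 lower upon depletion and 6 higher in CTCF-depleted cells than at 0 h. With the replicate block, 785 genes were higher and 1033 lower upon depletion, beside 798 and 1038, and 3 members were higher and 1 lower, as without it. DESeq2 called 603 and 775 genes. At the depth of these libraries, genes such as *C1QB* and *CR2*, with under 10 counts per library, are at the limit of detection.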
